A study of Mus musculus with 12 samples.

Results

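The interferon response genes described here are 45 mouse genes that are known to be induced by interferons or to carry the interferon signal. They were taken as a list of gene symbols, chosen with earlier results of these data known. They were read in UMI count tables of cells that the labels call haematopoietic stem cells (HSC). A UMI, or unique molecular identifier, is a short tag that marks copies of 1 RNA molecule. Of the 45 genes, 44 had a row in the tables, which hold 22307 gene symbols in all, and Mx1 is not analysed here.

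The cells came from the aorta-gonad-mesonephros region (AGM), where the first stem cells of the embryo arise, from fetal liver and from bone marrow. They were sorted singly into 96-well plates, their nuclei were pulled down on beads, and the polyadenylated RNA left in the cytoplasm was made into libraries by a modified scSTRT-seq protocol, a single-cell RNA-seq method. The series belongs to a study of mouse lines built for lineage tracing with CARLIN barcodes. The labels of these plates name no mouse line, genotype, age, treatment or sort markers, so how far the 3 tissues differ in any of these cannot be told apart from the tissue itself. There were 2 AGM plates, 5 fetal liver plates and 5 bone marrow plates. Plates carry origin codes, of which AGM has 1, fetal liver has 1 for plates 1 to 3 and 1 for plates 4 and 5, and bone marrow has the same split. The labels do not say whether a code is 1 animal or a pool. The tissue of bone marrow plates 4 and 5 is given by their titles only.

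Of 1152 wells, 1020 were kept as cells, namely 143 AGM cells, 454 of fetal liver origin and 423 of bone marrow origin. They held 83152493 UMIs, and plate totals ran from 2596681 to 15977740. AGM cells had a median of 159228 UMIs, fetal liver cells 54303 and bone marrow cells 59558. All 12 plates used the same 96 well barcodes. Each of 12 HSC marker genes (among them Kit, Procr, Mecom and Hlf) had UMIs in every tissue. Their summed level lay between 1318 and 1367 CPM in AGM plates, 1349 and 1451 CPM in fetal liver plates, and 1618 and 1866 CPM in bone marrow plates. Single markers differed more than the sums. By the test described below, 5 of 12 were called higher and 1 lower in fetal liver against AGM (2.92% and 1.91% of all genes), with log2 fold changes from -1.91 to 5.22. In bone marrow against fetal liver 3 were higher and 1 lower (2.68% and 2.06% of all), and against AGM 5 and 2 (5.29% and 3.63%). CPM are UMI counts per 1000000 UMIs of the plate or library, with library sizes scaled by the trimmed mean of M values (TMM). They are not divided by gene length, since a UMI stands for a molecule, and any order of levels between genes below is on this scale. Ptprc, which encodes the pan-leukocyte protein CD45, had a UMI in 53 of 143 AGM cells, 257 of 454 fetal liver cells and 191 of 423 bone marrow cells.

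Type I interferons bind the receptor IFNAR and type II interferon binds IFNGR. Through the JAK kinases they activate STAT proteins, which enter the nucleus and switch on a broad set of genes. STAT proteins together with IRF9 bind the interferon-stimulated response element (ISRE), which IRF proteins also bind, and STAT pairs bind the gamma-activated site (GAS). Stem cells of the bone marrow are known to respond to interferons, and interferon signalling is also known to take part in the development of stem cells in the embryo.

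Promoter stretches are shown first because some genes that rose and some that did not pass the test carry the same element. Other genes that rose had no such core in the window, and the stretches printed were picked as examples. The RefSeq promoter table of GRCm38.p6, which holds 300 bases around a gene's start, has an entry for 36 of the 45 genes. The ISRE core was searched as GAAA, any 2 bases and GAAA again, and the GAS core as TTC, any 3 bases and GAA, on both strands. The second reads the same on either strand. An ISRE core was found in 20 of 36 genes (55.6%), against 3.99% of the 27025 genes of the table. A GAS core was found in 11 of 36 (30.6%), against 9.55% of all. By role, an ISRE core was present in 5 of 6 matched IRG and GBP GTPases and 6 of 10 direct antiviral genes. It was present in 0 of 5 matched genes of the mixed group described last, a group that also holds called genes. These matches describe letters in the window and not bound sites.

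In the stretches below, capitals mark the cores and each stretch reads 5′ to 3′ on the gene's own strand, ending before the start base. Gbp2 lies at chr3:142620589-142620628 on the plus strand, Irgm1 at chr11:48871421-48871465 on the minus strand, Igtp at chr11:58199496-58199546 on the plus strand and Irf1 at chr11:53769909-53769947 on the plus strand. Isg15 lies at chr4:156200860-156200911 on the minus strand and Ifit1 at chr19:34640770-34640828 on the plus strand. The first 4 belong to genes called higher in at least 1 comparison, and the last 2 to genes called in none.
Gbp2: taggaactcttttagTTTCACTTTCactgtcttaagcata
Irgm1: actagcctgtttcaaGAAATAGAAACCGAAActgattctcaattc
Igtp: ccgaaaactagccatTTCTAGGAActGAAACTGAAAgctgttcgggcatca
Irf1: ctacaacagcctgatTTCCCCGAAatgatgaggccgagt
Isg15: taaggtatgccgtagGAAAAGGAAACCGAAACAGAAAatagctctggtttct
Ifit1: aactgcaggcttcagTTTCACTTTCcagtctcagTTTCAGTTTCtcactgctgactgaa
Gbp2 and Ifit1 carry the ISRE core on the opposite strand, where it reads TTTC, any 2 bases and TTTC. Irgm1 and Isg15 carry overlapping copies, Igtp has a GAS core beside its ISRE core, and Irf1 has a GAS core alone.

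Counts were summed over plates of the same origin code, so that AGM had 1 library and the other tissues 2 each, and were tested by edgeR's quasi-likelihood test. A gene was called at a Benjamini-Hochberg adjusted p under 0.05 over all 15472 tested genes, and every adjusted p below comes from that test. The error after a log2 fold change is an approximate standard error, the change over the root of its F statistic. With its 1 library AGM was assumed to vary like the others. All 44 genes with a row passed the filter on low counts. Fetal liver takes part in both main comparisons, so they are not independent, and their values are set side by side below.

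In fetal liver against AGM, 7 of the 44 genes rose and 1 fell, whereas 2.92% of all tested genes were called higher and 1.91% lower. The 7 were Ifi47, Gbp2, Iigp1, Sp100, Ifi27, Ifitm1 and Irf1, and the 1 that fell was Bst2. The median log2 fold change of the 44 genes was 0.43, beside 0.05 for all genes, and 32 of 44 lay above 0. Without fetal liver plate 4, 3 of the 44 genes were called (Ifi47, Ifi27 and Ifitm1). Fold changes of the 7 and of Bst2 then kept their direction. Calls over all genes fell as well, from 452 higher and 296 lower to 111 and 70 of the 15267 genes then tested.

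In bone marrow against fetal liver, 9 of 44 rose (Iigp1, Irgm1, Zbp1, Ifi27, Sp100, Rtp4, Trim30a, Dtx3l and Oasl2), against 2.68% of all genes called higher. The number called lower was 0, where the background was 2.06%. By edgeR 0 of 44 also had an unadjusted p under 0.05 in that direction, and DESeq2 and limma called 0 lower. The median log2 fold change was 0.82, beside 0 for all genes, and 38 of 44 were above 0. These calls depended on fetal liver plate 4. Without it 0 of 44 were called by edgeR, 14 had an unadjusted p under 0.05, and the test was not run in another tool without that plate. Log2 fold changes of the 9 then stayed above 0, from 0.75 (Rtp4) to 4.84 (Zbp1). Those of Iigp1, Irgm1, Sp100 and Trim30a were larger than in the fit as planned, and the rest were smaller. Calls over all genes fell too, from 414 higher and 318 lower to 56 and 61 of the 15267 genes then tested. Calls among the 44 also fell to 4 without fetal liver plate 2, fetal liver plate 3 or bone marrow plate 4, and to 2 without bone marrow plate 5. In the same order, 278, 244, 283 and 215 of all genes were then called higher, and 236, 185, 231 and 187 lower.

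Bone marrow against AGM gave 15 genes called higher, where 5.29% of all genes were called higher, and 0 called lower, where 3.63% were. By edgeR 1 gene had an unadjusted p under 0.05 in the lower direction, and DESeq2 and limma each called 1 lower. The median log2 fold change was 1.02, beside 0.04 for all genes. With Zbp1 and Ifit3, which had no UMI in AGM, set to their lower bounds, the medians against AGM were again 0.43 and 1.02. These bounds lie above the medians, so they could not move them. Without fetal liver plate 4, which is in neither group but adds to the shared estimate of spread, 7 genes were called (Ifi27, Ifi47, Ifitm1, Zbp1, Gbp2, Irgm1 and Sp100). Over all genes 193 were then called higher and 136 lower, beside 819 and 561 in the fit as planned.

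Plates were also set side by side. Every fetal liver plate lay above both AGM plates for 16 of 44 genes, against 12.1% of all genes, and below them for 3 (Isg15, Bst2 and Eif2ak2), against 14.5%. Every bone marrow plate lay above every fetal liver plate for 9 genes (Ifi27, Ifih1, Bst2, Rtp4, Zbp1, Irgm1, Iigp1, Sp100 and Lgals3bp), against 3.54% of all, and below for 0, against 4.48%. Bone marrow plates lay above AGM plates for 22 genes, against 10.9%, and below for 1, Bst2, against 15.1%.

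**Figure D1:**
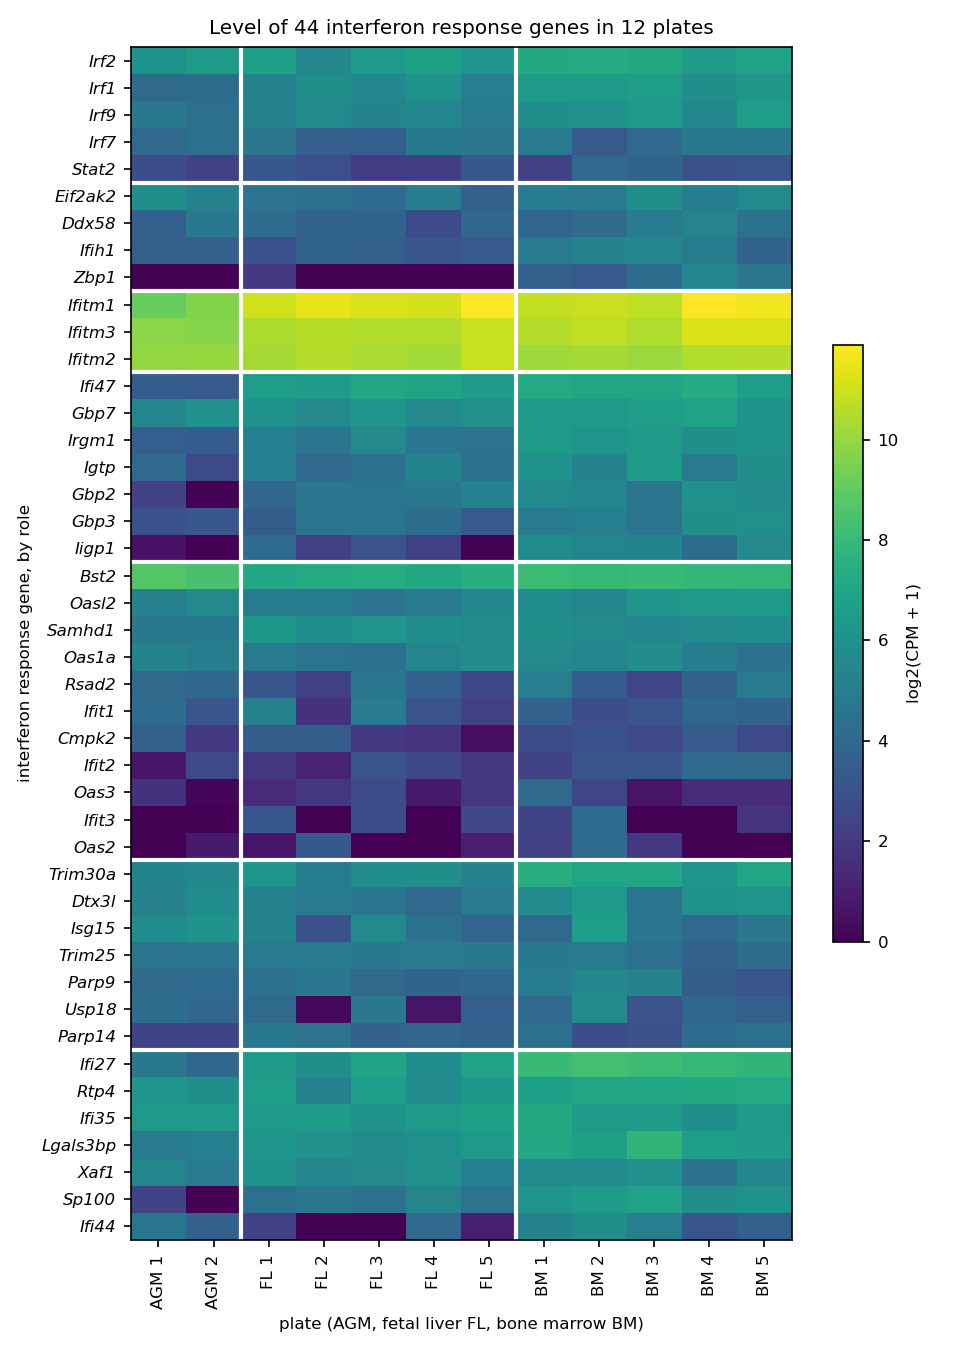
Level of each of the 44 genes in each of the 12 plates as log2(CPM + 1), with genes in rows grouped by role (white lines) and plates in columns by tissue. The 3 IFITM genes are the brightest rows throughout, and the block of IRG and GBP GTPases is dark in the AGM columns and brighter in the bone marrow columns.

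Summed over the 44 genes, the level was 3873 ± 106 CPM (SD, n = 2 plates) in AGM, 7006 ± 1093 CPM (n = 5) in fetal liver and 8156 ± 1421 CPM (n = 5) in bone marrow. Most of it came from 3 genes: the IFITM group made up 66.4%, 79.8% and 69.8% of the sum. Without that group the sum was 1302, 1414 and 2462 CPM. Plates of fetal liver then spanned 1196 to 1558 CPM, which takes in both AGM plates (1341 and 1264 CPM), and bone marrow plates spanned 2169 to 2631 CPM, above all others. The difference in the whole sum between AGM and fetal liver thus lay mostly in the IFITM group, and that between fetal liver and bone marrow mostly in the other genes.

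The list holds 5 genes for transcription factors of the pathway, of which 1 was called in fetal liver against AGM, 0 in bone marrow against fetal liver (3 at an unadjusted p under 0.05, 0 by DESeq2 and 3 by limma) and 2 in bone marrow against AGM, all higher. The shares of all genes called higher were 2.92%, 2.68% and 5.29%. Irf1 encodes an activator that interferon gamma strongly induces. It stood at 16.2 and 17.6 CPM in the AGM plates, at 35.4, 57.6, 43.6, 65.9 and 32.99 CPM in fetal liver plates 1 to 5 and at 87.8, 88.02, 101, 56.7 and 77.7 CPM in bone marrow plates 1 to 5. All fetal liver plates were above AGM, and the fetal liver and bone marrow ranges overlapped. The log2 fold change was 1.63 ± 0.39 in fetal liver against AGM (adjusted p = 0.0164), 0.67 ± 0.30 in bone marrow against fetal liver (adjusted p = 0.263) and 2.30 ± 0.41 in bone marrow against AGM (adjusted p = 7.45e-04). Without fetal liver plate 4 the first lost its call (adjusted p = 0.501), as it did on leaving out fetal liver plate 2 (0.0512), on leaving out bone marrow plate 5 (0.0757) and without both plates of the second fetal liver code (0.120).

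Irf9 encodes the DNA-binding partner of STAT proteins in the type I response. Its level was 25.9 and 19.7 CPM in AGM plates, 35.1, 50.8, 39.2, 45.7 and 29.3 CPM in fetal liver plates and 59.3, 63.3, 85.2, 45.8 and 102 CPM in bone marrow plates. It rose in bone marrow against AGM (log2 fold change 1.66 ± 0.40, adjusted p = 0.0100), and the steps on either side of fetal liver, 0.82 ± 0.38 and 0.84 ± 0.30 on the log2 scale, did not pass. The call was lost without fetal liver plate 4 (adjusted p = 0.231), without bone marrow plate 5 (0.139), with thinned cells (0.0533) and when cells with a UMI were counted (0.180). Irf2, which encodes a factor that can repress the same promoters, was the highest of the 5, with 64.7 and 87.7 CPM in AGM plates, 105, 43.7, 85.8, 107 and 70.02 CPM in fetal liver plates and 150.1, 158, 148, 92.99 and 113 CPM in bone marrow plates. It was called by edgeR in no comparison, and by limma in bone marrow against fetal liver and against AGM. Irf7, the main amplifier of type I interferon production, and Stat2 were low and not called, with tissue means of 17.1, 21.97 and 23.6 CPM and of 5.46, 5.64 and 8.91 CPM in AGM, fetal liver and bone marrow.

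Among 4 genes for sensors of foreign RNA or DNA, only Zbp1 was called. It encodes a sensor of Z-form nucleic acids that can start cell death. AGM had 0 UMIs of it, fetal liver 20, all in 1 cell of plate 1, and bone marrow 504, in 13.7% of cells (95% exact interval 10.6% to 17.4%). Intervals of this kind cover counting error only. Bone marrow plates 1 to 5 stood at 11.4, 9.59, 18.3, 41.7 and 25.5 CPM, so every one was above the fetal liver plate with UMIs at 2.96 CPM. Bone marrow was higher than fetal liver by 5.12 ± 1.12 on the log2 scale (adjusted p = 0.00913) and higher than AGM (adjusted p = 0.00208). Pooled over cells, it stood 154-fold above a floor of 3 UMIs over AGM, which takes UMIs as independent. The fold against fetal liver rests on the 20 UMIs of that 1 cell. DESeq2 did not call it (adjusted p = 0.326), nor did edgeR without fetal liver plate 3 (0.0700), fetal liver plate 4 (0.129) or bone marrow plate 4 (0.0513).

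Eif2ak2 encodes the kinase PKR, which binds double-stranded RNA and stops translation. It was the highest sensor gene, at 59.97 and 34.6 CPM in AGM plates, 21.8, 20.4, 16.8, 32.1 and 11.4 CPM in fetal liver plates and 30.8, 29.97, 56.9, 32.2 and 49.7 CPM in bone marrow plates. All fetal liver plates lay below AGM, but its log2 fold change of -1.11 ± 0.42 was not called by edgeR (adjusted p = 0.164), and was by limma. Ifih1 and Ddx58, for the RNA sensors MDA5 and RIG-I, had means of 11.3 and 16.9 CPM in AGM cells, of 9.25 and 11.4 CPM in those of fetal liver, and of 28.3 and 24.2 CPM in those of bone marrow. Neither was called by edgeR, and Ifih1 was called in bone marrow against fetal liver by DESeq2 and limma and in bone marrow against AGM by limma. Every bone marrow plate of Ifih1 was at or above 12.6 CPM, where the highest fetal liver plate also rounded to 12.6 CPM.

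The IFITM genes encode small membrane proteins that block entry of enveloped viruses. Ifitm1, Ifitm2 and Ifitm3 lie side by side on chromosome 7, between 140954837 and 141010770 on GRCm38. Each had a UMI in at least 98.7% of cells of every tissue after cells were thinned to 20000 UMIs. Ifitm1 measured 561 and 806 CPM in AGM plates, 2111, 2772, 2324, 2159 and 3700.1 CPM in fetal liver plates and 1762, 1934, 1707, 3783 and 3299.6 CPM in bone marrow plates. It rose in fetal liver against AGM by 1.96 ± 0.34 (adjusted p = 0.00104) and did not pass between bone marrow and fetal liver (0.11 ± 0.25, adjusted p = 0.898). Bone marrow plates 4 and 5, which share 1 origin code, were the 2 highest of their tissue, and bone marrow plates 1 to 3 all lay below every fetal liver plate.

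Ifitm3 was at 896 and 842 CPM in AGM plates, 1351, 1561, 1459.6, 1448 and 1869.6 CPM in fetal liver plates and 1515, 1737, 1427, 2422 and 2386 CPM in bone marrow plates. Its log2 fold change was 0.80 ± 0.28 in fetal liver against AGM (adjusted p = 0.131) and 1.20 ± 0.29 in bone marrow against AGM (adjusted p = 0.0103). Only the second was called by edgeR, and without fetal liver plate 4 it was not (adjusted p = 0.212). The first was called by limma. Ifitm2 had the narrowest spread of the 3. It ran over 1001 and 1036 CPM in AGM plates, 1251, 1495, 1329.7, 1215 and 1911 CPM in fetal liver plates and 1148, 1258, 1092, 1483 and 1517 CPM in bone marrow plates. No comparison by edgeR called it, and limma called it higher in fetal liver against AGM. In thinned cells Ifitm1 and Ifitm3 were also compared from cell to cell. The median Spearman rho of Ifitm1 with Ifitm3 was 0.42 over the 2 AGM plates (0.30 and 0.54), and in bone marrow it was 0.31 over 5 plates (0.23 to 0.48). It was the highest of 171 and of 153 pairs compared. In fetal liver it was 0.19 over 5 plates (0.05 to 0.29), below the highest of the pairs there. Ifitm2 with Ifitm3 had 0.34 in AGM, 0.18 in fetal liver cells and -0.03 in those of bone marrow. Such values are descriptions within plates of cells that share a library.

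The immunity-related GTPases (IRG) and guanylate-binding proteins (GBP) attack vacuoles that hold parasites or bacteria, and interferon gamma is their best known inducer. In fetal liver against AGM 3 of 7 rose, in bone marrow against fetal liver 2 of 7, and in bone marrow against AGM 6 of 7. Over all genes 2.92%, 2.68% and 5.29% were called higher in these comparisons. Their summed level was 89.6 and 97.4 CPM in the AGM plates, 228 to 331 CPM in fetal liver plates and 443 to 525 CPM in bone marrow plates, so that plates of the 3 tissues did not overlap.

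Ifi47, also called IRG-47, was the highest of the group in fetal liver and bone marrow. It stood at 9.91 and 8.92 CPM in AGM plates, 101, 89.6, 137, 120.4 and 94.6 CPM in fetal liver plates and 151, 129, 127, 159.7 and 101 CPM in bone marrow plates. Among thinned cells 9.22% had a UMI of it in AGM, 57.3% did in fetal liver, and 43.6% did in bone marrow. The rise lay between AGM and fetal liver, with a log2 fold change of 3.56 ± 0.35 (adjusted p = 1.04e-06), which was called in all 26 alternatives. Between fetal liver and bone marrow it was 0.24 ± 0.23 (adjusted p = 0.666). The annotation places Ifi47 on chromosome 11 at 49076587 to 49096974, where it overlaps Olfr56 on the same strand.

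Gbp2 had 4.11 and 0 CPM in AGM plates, 14.2, 24.1, 23.3, 26.95 and 37.7 CPM in fetal liver plates and 51.1, 44.96, 22.8, 62.6 and 52.5 CPM in bone marrow plates. It rose in fetal liver against AGM by 3.22 ± 0.58 (adjusted p = 0.00148, and 0.0540 without fetal liver plate 4), and its step to bone marrow of 0.97 ± 0.40 was not called (adjusted p = 0.211). Iigp1, for the effector Irga6, was close to absent in AGM. It gave 0.493 and 0 CPM in AGM plates, 16.9, 3.71, 7.34, 3.77 and 0 CPM in fetal liver plates and 53.3, 42.9, 39.9, 17.2 and 47.6 CPM in bone marrow plates. Both steps were called, at 4.33 ± 0.91 (adjusted p = 0.00533) and 2.64 ± 0.58 (adjusted p = 0.0101), but the first rested on few molecules and 1 fetal liver plate had none. That call was lost without fetal liver plate 4 (adjusted p = 0.394), with bone marrow plate 5 left out (0.0610), by limma on plates (0.0741), with thinned cells (0.173) and when cells with a UMI were counted in place of UMIs (0.469). The call of the second step was lost without fetal liver plate 2 (adjusted p = 0.0505), 3 (0.0556) or 4 (0.364). It was also lost without bone marrow plate 5 (0.144), with only these 2 tissues fitted (0.0586) and without the second fetal liver code.

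Irgm1 encodes a regulator of the effector GTPases. Values were 10.9 and 10.2 CPM in AGM plates, 33.8, 24.1, 46.8, 24.4 and 22.2 CPM in fetal liver plates and 88.6, 70.7, 82.2, 56.7 and 67.2 CPM in bone marrow plates, with no overlap between any 2 tissues. The step to bone marrow was called at 1.31 ± 0.34 (adjusted p = 0.0309), and that from AGM to fetal liver at 1.48 ± 0.44 was not (adjusted p = 0.0618). Without fetal liver plate 4 the adjusted p of the step to bone marrow was 0.323, and that step was called in 15 of 26 alternatives. The step from AGM to fetal liver was called by DESeq2, by limma and in 7 of 26 alternatives in all.

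Igtp, for the regulator Irgm3, had 15.4 and 5.29 CPM in AGM plates, 34.4, 15.9, 19.9, 39.7 and 20.2 CPM in fetal liver plates and 65.4, 38.9, 86.9, 29.03 and 57.7 CPM in bone marrow plates. Gbp3 had 7.06 and 8.503 CPM in AGM plates, 10.4, 22.9, 23.3, 18.5 and 9.43 CPM in fetal liver plates and 28.7, 33.8, 23.03, 60.3 and 61.7 CPM in bone marrow plates. Both were called by edgeR only in bone marrow against AGM, at 2.24 ± 0.49 (adjusted p = 0.00531) and 2.59 ± 0.61 (adjusted p = 0.00927). By limma Igtp was called in bone marrow against fetal liver as well. In bone marrow against AGM neither gene was called without fetal liver plate 4 (adjusted p = 0.130 for Igtp and 0.1805 for Gbp3), and without bone marrow plate 5 Igtp was not (0.0699). In Gbp3, bone marrow plates 4 and 5 were the 2 highest. Gbp7 was not called by edgeR, and was by limma in bone marrow against AGM, with tissue means of 49.3, 57.1 and 88.1 CPM. Gbp7, Gbp3 and Gbp2 are neighbours on chromosome 3, between 142530342 and 142638008, and Igtp overlaps Irgm2 on the same strand of chromosome 11. Reads of such neighbours and near copies could have been split between them, since the labels do not give the strand and overlap settings of the counting.

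**Figure D2:**
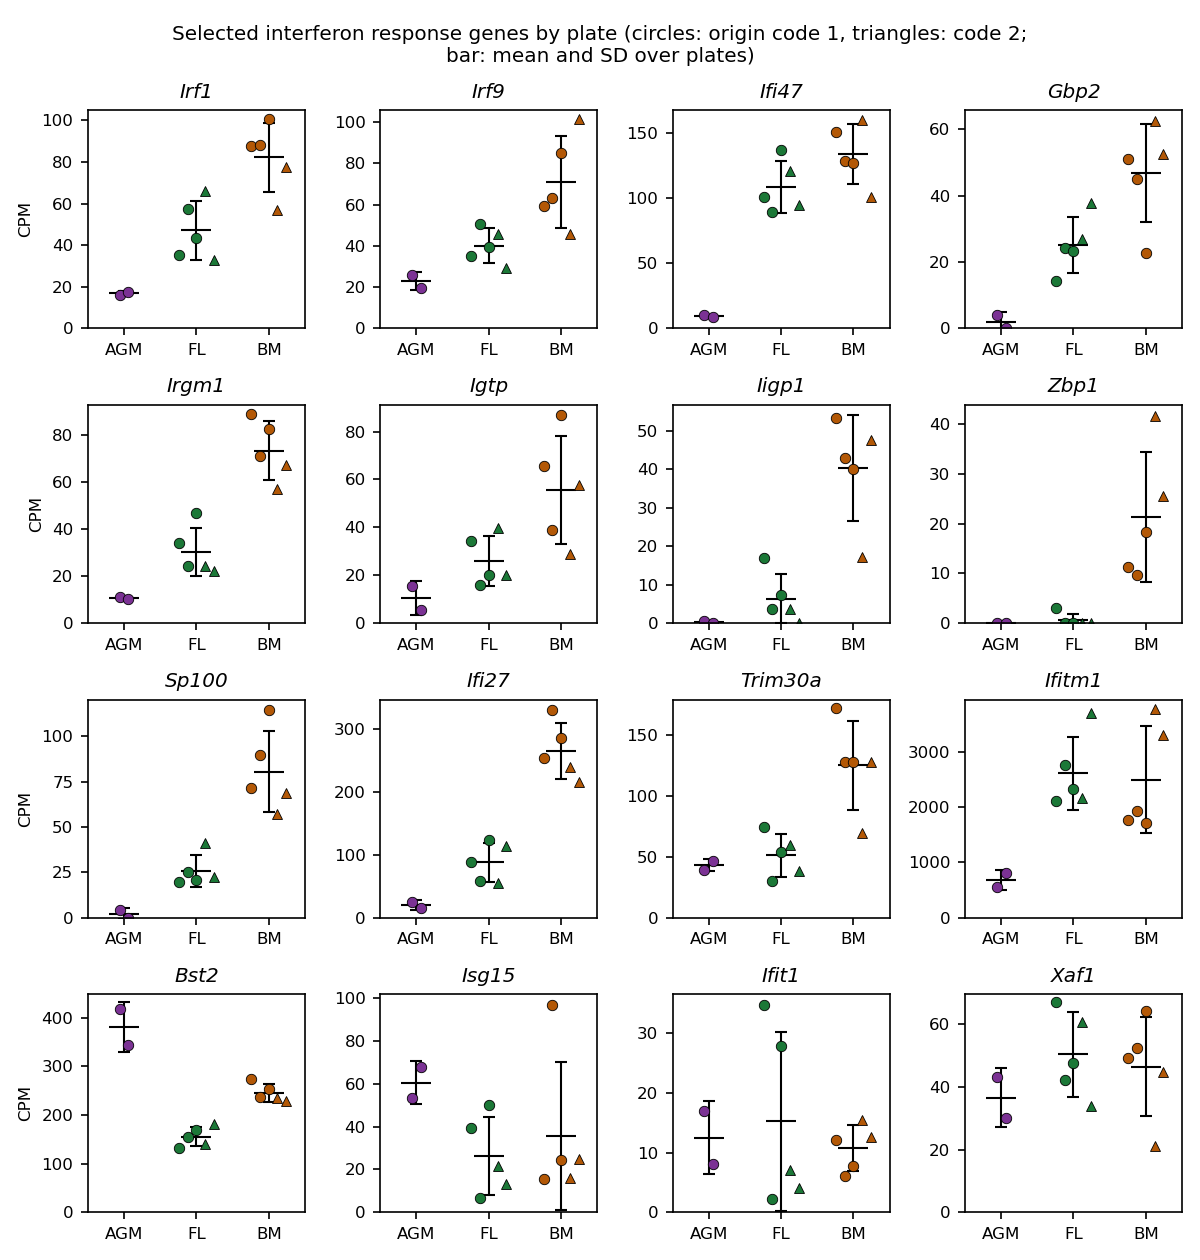
CPM of 16 interferon response genes in each plate, by tissue (FL, fetal liver; BM, bone marrow), with circles for the first and triangles for the second origin code of a tissue and bars for the mean and SD over plates. Iigp1, Irgm1, Sp100 and Ifi27 have all bone marrow plates above all others, Bst2 is highest in AGM, Isg15 has 1 high bone marrow plate, and Ifit1 has 2 high fetal liver plates.

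Direct antiviral genes of the IFIT and OAS families are the classical targets of type I interferon. Of 11 with a row, 1 fell in fetal liver against AGM, 1 rose in bone marrow against fetal liver and 0 were called in bone marrow against AGM (4 at an unadjusted p under 0.05, 2 called by DESeq2 and 2 by limma). Over all genes 1.91% fell in the first, 2.68% rose in the second, and 5.29% rose and 3.63% fell in the third. The 1 that fell was Bst2, for tetherin, which holds budding viruses at the cell surface. It stood at 418 and 344 CPM in AGM plates, 133, 156, 169, 140.3 and 181 CPM in fetal liver plates and 275, 237, 253, 235 and 229 CPM in bone marrow plates, so fetal liver was lowest and bone marrow lay between, with no overlap. The log2 fold change was -1.36 ± 0.24 in fetal liver against AGM (adjusted p = 0.00107), 0.70 ± 0.20 in bone marrow against fetal liver (adjusted p = 0.0511) and -0.66 ± 0.24 in bone marrow against AGM (adjusted p = 0.105). The last 2 were not called by edgeR, and both were by DESeq2 and by limma. Among thinned cells 97.2% had a Bst2 UMI in AGM, 72.8% did in fetal liver, and 62.5% did in bone marrow. The edgeR call in fetal liver against AGM was lost without fetal liver plate 4 (log2 fold change -1.25, adjusted p = 0.175), and counting cells with a UMI in place of UMIs turned its sign (0.26, adjusted p = 0.400).

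Oasl2, an OAS-like protein gene, measured 35.6 and 47.2 CPM in AGM plates, 31.6, 30.5, 22.2, 29.1 and 46.5 CPM in fetal liver plates and 53.7, 43.2, 72.99, 83.5 and 88.1 CPM in bone marrow plates. Its rise in bone marrow against fetal liver was 1.20 ± 0.33 (adjusted p = 0.0378), it was called in 12 of 26 alternatives, and plates overlapped. Ifit1, whose protein binds viral RNA that lacks the host cap, had 2 high fetal liver plates, 1 and 3, of the same origin code. Its values were 16.9 and 8.19 CPM in AGM plates, 34.8, 2.27, 27.9, 7.18 and 4.04 CPM in fetal liver plates and 12.1, 6.08, 7.81, 15.4 and 12.6 CPM in bone marrow plates, and 1 cell held 35.6% of its UMIs in fetal liver. Rsad2, for the antiviral enzyme viperin, had means of 15.8, 10.6 and 20.2 CPM, and Oas1a had 35.8, 35.3 and 37.6 CPM. Samhd1, which depletes nucleotides, stood at 25.7, 63.1 and 52.9 CPM. None of these 4 was called by edgeR. Samhd1, with every fetal liver plate above AGM, was called higher in fetal liver against AGM by DESeq2, by limma and in 7 of 26 alternatives in all.

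Several of these genes were at or near 0. Ifit3 had 0 UMIs in AGM cells, 99 in those of fetal liver and 176 in those of bone marrow. Pooled over cells, the last 2 stood 33.6-fold and 53.8-fold above the floor of 3 UMIs in AGM, which takes UMIs as independent. The UMIs came from 26 of 454 fetal liver cells and 8 of 423 bone marrow cells (1.89%). In AGM 0 of 143 cells had one, with an exact interval up to 2.55%. Neither difference from AGM was called by edgeR, and both were by DESeq2. Single cells held 42.4% of its fetal liver and 67.6% of its bone marrow UMIs. Tissue means of Ifit2, Oas2, Oas3 and Cmpk2 were 2.21, 0.285, 1.53 and 8.45 CPM in AGM. In the same order they were 4.09, 1.55, 2.27 and 5.15 CPM in fetal liver. For bone marrow they were 11.4, 3.75, 5.002 and 6.498 CPM. At these levels only very large differences were detectable.

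The next 7 genes act through ISG15, ubiquitin or ADP-ribose. Isg15 encodes a ubiquitin-like protein that is joined to other proteins and is among the first genes induced. It gave 53.2 and 67.5 CPM in AGM plates, 39.4, 6.60, 50.2, 21.7 and 13.5 CPM in fetal liver plates and 15.7, 96.8, 24.6, 15.9 and 24.9 CPM in bone marrow plates. AGM was above every fetal liver plate and above all bone marrow plates but plate 2, yet neither -1.13 ± 0.47 (adjusted p = 0.226) nor -0.84 ± 0.48 (adjusted p = 0.340) was called. Usp18, for the enzyme that removes ISG15, was likewise uneven, with 16.01, 0.206, 26.2, 0.588 and 10.8 CPM in fetal liver plates and 15.9, 51.7, 7.16, 14.5 and 11.4 CPM in bone marrow plates beside 18.8 and 14.1 CPM in AGM plates.

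Trim30a encodes a TRIM-family protein and was the highest of this group in fetal liver and bone marrow, while Isg15 was above it in AGM. Trim30a read 39.5 and 46.4 CPM in AGM plates, 74.1, 30.3, 53.5, 59.9 and 38.04 CPM in fetal liver plates and 172, 127, 128, 69.4 and 128 CPM in bone marrow plates. It rose by 1.19 ± 0.26 in bone marrow against fetal liver (adjusted p = 0.00938), with only bone marrow plate 4 inside the fetal liver range. It was not called without fetal liver plate 4 (adjusted p = 0.180) or bone marrow plate 5 (0.1596). Dtx3l, a ubiquitin ligase gene, had 35.3 and 53.8 CPM in AGM plates, 36.3, 28.1, 24.1, 15.5 and 28.3 CPM in fetal liver plates and 52.2, 85.3, 23.9, 68.5 and 72.2 CPM in bone marrow plates. Its rise of 1.33 ± 0.35 was called (adjusted p = 0.0316), in the fit as planned and in 15 of 26 alternatives. Dtx3l and its partner Parp9 overlap head to head on chromosome 16, and Parp9 was not called, with means of 16.3, 16.98 and 23.1 CPM. Parp14 had 4.35, 17.7 and 15.2 CPM and Trim25 22.97, 27.98 and 20.8 CPM, also without a call.

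The remaining 7 genes have mixed roles. Ifi27 encodes a membrane protein of mitochondria and the nuclear envelope. Its level was 25.7 and 14.7 CPM in AGM plates, 87.7, 59.02, 123, 54.5 and 114 CPM in fetal liver plates and 254, 329.9, 284, 239 and 216 CPM in bone marrow plates. No 2 tissues overlapped, and both steps were called, at 1.89 ± 0.31 (adjusted p = 4.72e-04) and 1.68 ± 0.23 (adjusted p = 9.74e-05, and 0.128 without fetal liver plate 4). In thinned cells it was detected in 12.1%, 36.3% and 50.3% of cells, in the order AGM, fetal liver, bone marrow.

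Sp100, for a component of PML nuclear bodies, gave 4.49 and 0 CPM in AGM plates, 19.9, 24.97, 20.6, 40.96 and 22.2 CPM in fetal liver plates and 71.5, 89.6, 114, 57.2 and 68.8 CPM in bone marrow plates. It too rose at both steps without overlap of plates, by 3.31 ± 0.52 (adjusted p = 3.33e-04) and 1.42 ± 0.36 (adjusted p = 0.0240). Without fetal liver plate 4, its highest fetal liver plate, the first was 2.89 (adjusted p = 0.0513) and the second 1.81 (adjusted p = 0.128). The second was called in 17 of 26 alternatives. Rtp4, whose product helps receptors reach the cell surface, had 73.4 and 60.1 CPM in AGM plates, 101, 36.1, 100.1, 52.1 and 78.8 CPM in fetal liver plates and 105, 128, 128, 148 and 155 CPM in bone marrow plates. The rise of 0.95 ± 0.25 in bone marrow against fetal liver passed (adjusted p = 0.0350), in the fit as planned and in 14 of 26 alternatives.

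Lgals3bp encodes a secreted glycoprotein. Its values were 27.5 and 34.2 CPM in AGM plates, 75.7, 63.4, 52.2, 62.02 and 89.2 CPM in fetal liver plates and 142, 107, 220.1, 100.2 and 91.8 CPM in bone marrow plates. It was called by edgeR in bone marrow against AGM only (2.10 ± 0.36, adjusted p = 5.88e-04). That call was lost without fetal liver plate 4 (adjusted p = 0.0676). In fetal liver against AGM it was called by DESeq2, by limma and in 8 of 26 alternatives in all. In bone marrow against fetal liver it was called by limma and in 4 of 26 in all. Ifi35 and Xaf1, a gene of apoptosis control, differed by less than their errors in most steps. Their tissue means were 85.6, 87.8 and 96.3 CPM and 38.5, 54.6 and 45.6 CPM. Ifi44 had 19.4, 6.85 and 26.6 CPM and was not called by edgeR. By limma it was called lower in fetal liver against AGM and higher in bone marrow against fetal liver.

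**Figure D3:**
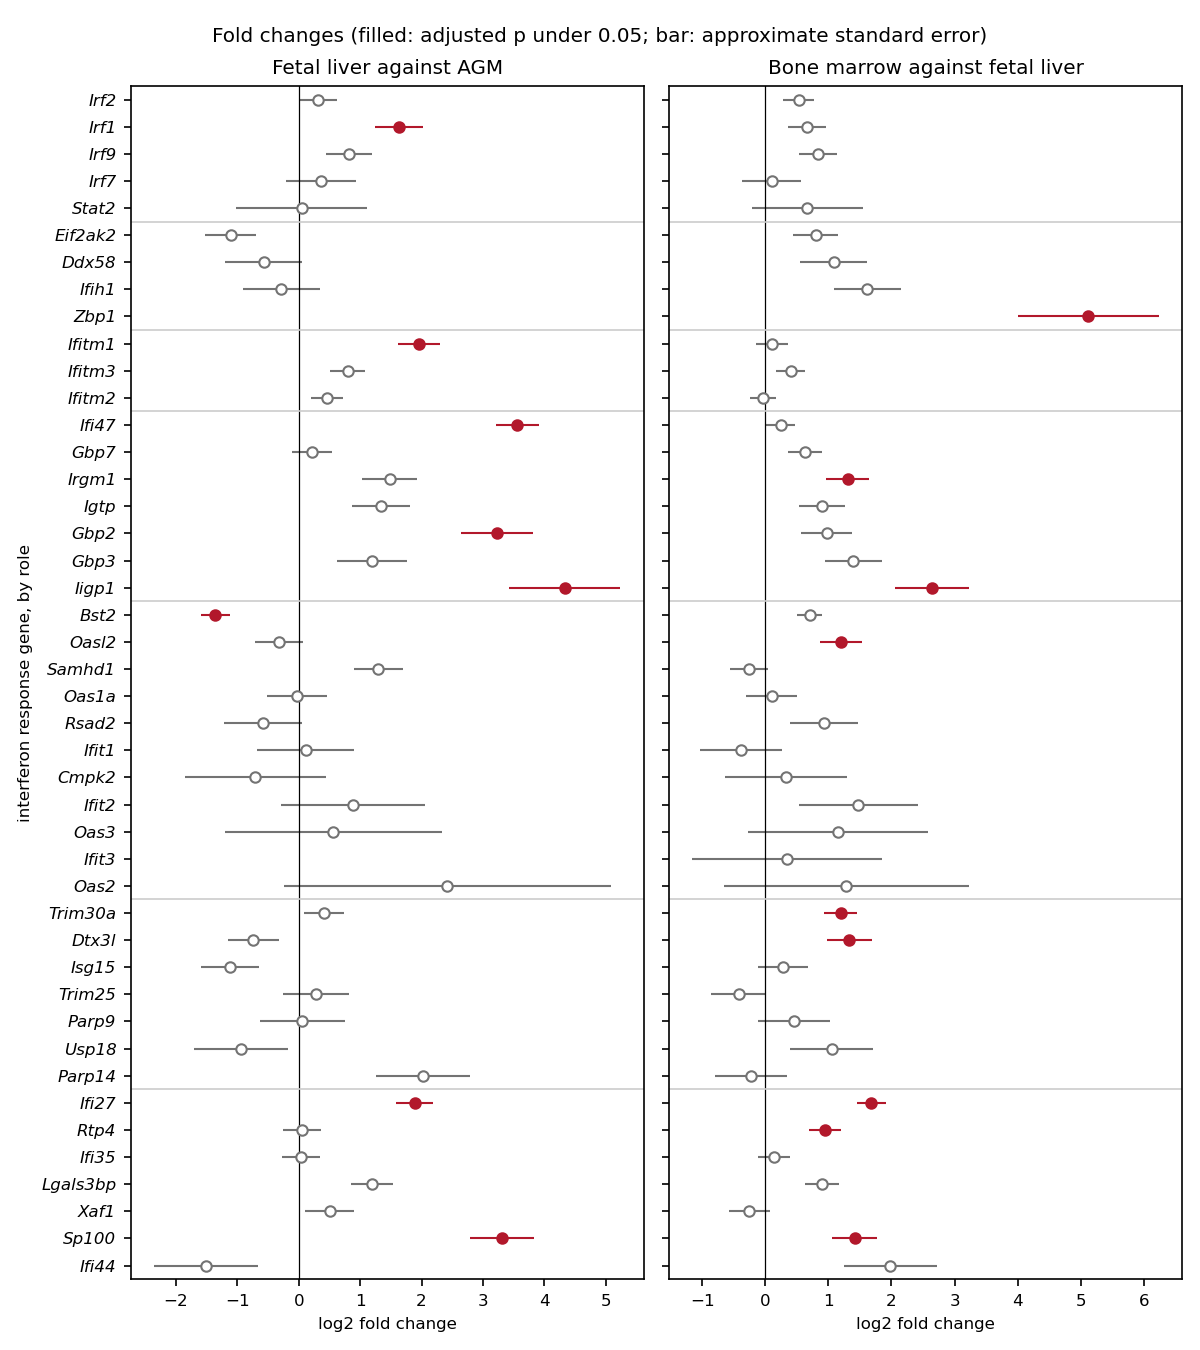
Log2 fold change of each gene in fetal liver against AGM (left, 42 genes, without Zbp1 and Ifit3, which had no UMI in AGM) and in bone marrow against fetal liver (right, 44 genes), with bars for the approximate standard error and filled points for an adjusted p under 0.05. On the left the called genes lie in the IRG and GBP block and at Irf1, Ifitm1, Ifi27, Sp100 and Bst2, and on the right 9 called genes lie above 0.

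After every cell was thinned to 20000 UMIs, the median AGM cell had 9 of the genes detected, the median fetal liver cell 11 and the median bone marrow cell 10 (141, 419 and 392 cells, since shallower cells were left out). Without thinning the medians were 17, 15 and 13. At the thinned depth the same medians for genes of all kinds were 3378, 3079 and 1918.5, so bone marrow cells had a like number of interferon response genes among fewer genes in all. As a share of the cell's own UMIs, without TMM scaling, the summed level of the median cell was 4618, 6984 and 7948 CPM. The range from the 5th to the 95th percentile of cells was 2328 to 7993 CPM in AGM, 4193 to 9970 CPM in fetal liver and 4566 to 13024 CPM in bone marrow. Cells therefore differed in level within each tissue, and the ranges overlapped between tissues.

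**Figure D4:**
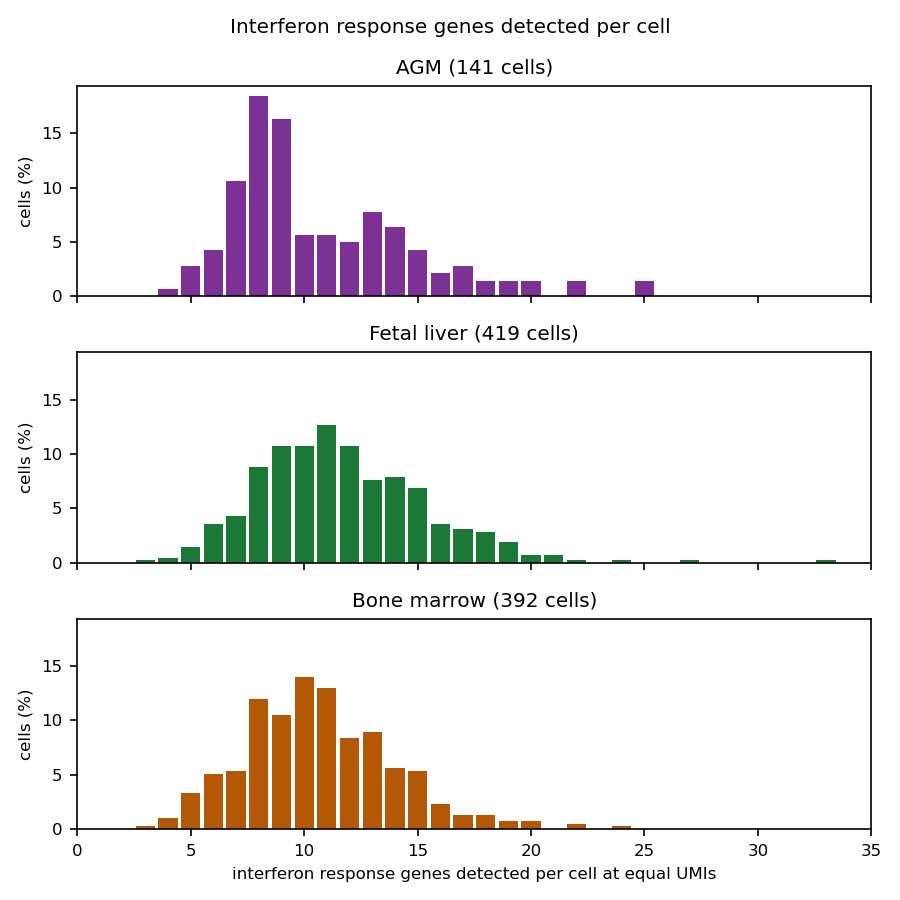
Share of cells (%) by number of interferon response genes detected, at 20000 UMIs per cell, in 141 AGM, 419 fetal liver and 392 bone marrow cells. The bulk of cells lies between 5 and 16 genes in each tissue, and the thin tails end at 25 genes for AGM, 33 for fetal liver and 24 for bone marrow.

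Whether the antiviral genes and the GTPases were high in the same cells was described within plates. The Spearman rho between the number of IFIT, OAS and like genes and the number of IRG and GBP genes detected per thinned cell ran from -0.04 to 0.32 over the 12 plates. Each number also went with the genes detected in all, with rho from -0.02 to 0.41 for the first and 0.07 to 0.43 for the second. In fetal liver the pair with the highest median rho of 253 was Ifi47 with Irf2 (0.22) and that with the lowest was Ifi27 with Ifitm2 (-0.15). In bone marrow the lowest was Ifi47 with Ifitm3 (-0.15). In AGM Xaf1 with Rtp4 had 0.42, and Isg15 had 0.37 with Oasl2, 0.37 with Rtp4, 0.36 with Bst2 and 0.34 with Trim30a, each positive in both plates. These AGM pairs were chosen after their values were seen.

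Genes upstream and beside the 45 were read from lists. Of 12 interferon genes 3 had a row (Ifna13, Ifnab and Ifnl2), and each had 1 UMI over all cells. No ligand could be tested. Of 14 receptor, JAK and STAT genes 13 were tested. In fetal liver against AGM edgeR called 0 (4 had an unadjusted p under 0.05, DESeq2 called 0 and limma 2 lower). In bone marrow against AGM, where 5.29% of all genes were called higher, 2 rose. They were Jak1, the kinase shared by all interferon receptors, from 90.7 to 184 CPM (adjusted p = 0.0399) and Il10rb, a chain of the lambda interferon receptor, from 10.6 to 37.1 CPM (adjusted p = 0.0406). The type I receptor genes Ifnar1 and Ifnar2 had 48.3 and 101 CPM in AGM, and 25.8 and 115 CPM in fetal liver. In bone marrow they had 48.01 and 119.7 CPM. The type II receptor genes Ifngr1 and Ifngr2 had 71.3 and 27.4 CPM, 108 and 23.1 CPM, and 92.7 and 15.8 CPM in the same order, so transcripts of both receptors were present in all 3 tissues and no change passed the test.

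Of 14 tested genes for nucleic acid sensing and interferon induction, edgeR called 0 in fetal liver against AGM (4 at an unadjusted p under 0.05, 2 called by DESeq2 and 1 by limma) and 0 in bone marrow against fetal liver (1 at an unadjusted p under 0.05, 0 by DESeq2 and 1 by limma). In bone marrow against AGM, where 5.29% of all genes were called higher, 2 of the 14 rose. They were Nlrc5, the activator of MHC class I genes, from 0 to 11.4 CPM (adjusted p = 0.0120) and Irf5 from 6.95 to 29.2 CPM (adjusted p = 0.0435). Of 41 tested further interferon-induced genes 7 rose in fetal liver against AGM, 9 in bone marrow against fetal liver and 13 in bone marrow against AGM. Over all genes 2.92%, 2.68% and 5.29% were called higher. By edgeR none of the 41 was called lower (1, 3 and 1 at an unadjusted p under 0.05, 1, 1 and 0 called by DESeq2 and 1, 2 and 0 by limma). Their median log2 fold changes were 0.95, 1.04 and 1.90, beside 0.05, 0 and 0.04 for all genes. The 4 with the smallest adjusted p in fetal liver against AGM were Tgtp2, Epsti1, Phf11b and Ube2l6. Tgtp2, another IRG GTPase, had 0.178, 20.3 and 65.3 CPM in AGM, fetal liver and bone marrow, and Tgtp1, a near copy that could share its reads, had 0, 1.27 and 25.0 CPM. Ube2l6, the conjugating enzyme for ISG15, had 20.01, 62.6 and 122 CPM, Uba7, its activating enzyme, 91.1, 175.9 and 283 CPM, and Epsti1 25.2, 96.5 and 173 CPM.

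Markers of other cell types differed between tissues as well. The sum of 8 endothelial genes lay between 975 and 1240 CPM in AGM plates, 303 and 437 CPM in fetal liver plates and 142 and 313 CPM in bone marrow plates, where Cdh5 and Plvap were at 0. All 8 had UMIs in AGM and fetal liver. Against AGM 5 of the 8 were called lower in fetal liver and 6 in bone marrow (1.91% and 3.63% of all genes). In bone marrow against fetal liver 3 were called lower (2.06% of all). In 1 setting AGM cells were cut to the 53 that had a Ptprc UMI, while cells of the other tissues were kept with or without one. The 8 calls among the 44 genes in fetal liver against AGM were then all made. Log2 fold changes were 3.65 beside 3.56 for Ifi47, -1.25 beside -1.36 for Bst2 and 1.20 beside 1.89 for Ifi27 (adjusted p = 9.58e-06, 0.00453 and 0.0255). In bone marrow against AGM Gbp3 was then not called (1.74 beside 2.59, adjusted p = 0.0725), and Ifit2 was (adjusted p = 0.0281). Summed macrophage genes (7 with a row) spanned 17.2 to 20.8 CPM in AGM plates, with C1qc and Cd14 at 0, 43.7 to 61.1 CPM in fetal liver plates and 17.2 to 85.2 CPM in bone marrow plates, with Cd14 at 0. Summed T and NK cell genes (5) spanned 21.0 to 29.0 CPM, 2.96 to 13.4 CPM and 25.0 to 111 CPM, with Cd3e at 0 in AGM and fetal liver and Cd3d at 0 in AGM and bone marrow. Summed B and plasmacytoid dendritic cell genes (4) spanned 32.9 to 38.4 CPM, 128 to 161 CPM and 60.4 to 108 CPM, with Cd79a at 0 in bone marrow, and 2 of 4 were called higher in fetal liver against AGM. Summed erythroid genes (6) spanned 90.2 to 105 CPM, 32.01 to 2259 CPM (median plate 1839 CPM) and 153 to 355 CPM, with Hba-a1 at 0 in AGM. Summed neutrophil genes (5) spanned 1.56 to 8.38 CPM, 5.16 to 17.5 CPM and 0 to 97.1 CPM (median plate 93.2 CPM), with Ngp at 0 in AGM and fetal liver, Camp at 0 in AGM and Ltf at 0 in bone marrow, and 2 of 5 were called higher in bone marrow against fetal liver. Summed stromal genes (5) spanned 49.4 to 63.5 CPM, 0 to 1.35 CPM and 0 to 9.61 CPM. Of 4 tested stromal genes 1 was called lower in fetal liver against AGM. Summed megakaryocyte genes (5) spanned 108 to 120 CPM, 120 to 236 CPM and 161 to 359 CPM. Of 4 tested 2 were called higher in bone marrow against fetal liver. Summed hepatocyte genes (4) spanned 6.43 to 12.9 CPM, 3.36 to 36.7 CPM and 21.2 to 62.8 CPM. Further marker calls in fetal liver against AGM were 1 erythroid, 1 megakaryocyte and 1 hepatocyte gene higher and 1 T and NK cell gene lower. In bone marrow against fetal liver 1 T and NK cell gene was higher and 1 B and plasmacytoid dendritic cell gene lower. In bone marrow against AGM 1 neutrophil, 1 hepatocyte and 2 erythroid genes were higher. So were 1 B and plasmacytoid dendritic cell gene and 1 T and NK cell gene, and 1 stromal gene was lower. No macrophage gene was called. Over all genes 2.92%, 2.68% and 5.29% were called higher and 1.91%, 2.06% and 3.63% lower in the 3 comparisons in this order. The part of these cell types in the results was not tested.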

How the data were processed

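The authors deposited 1 table per plate with raw UMI counts per gene symbol and well, not normalized. The tools named in the submitters' processing notes are UMI-tools, featureCounts and SAMtools, on the mm10 build. For tool versions, gene models and strand use, nothing is given in the sources used here. Overlapping or near-identical genes may therefore share reads. PCR copies are collapsed only as far as the UMIs allow.

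A well counted as a cell from 1000 detected genes and 3000 UMIs upward, with mitochondrial UMIs under 20% (1020 of 1152 wells). No doublet caller was run, since cells were sorted singly into wells, and no cell was clustered or typed. Raw counts were summed per origin code into 5 libraries and fitted in edgeR 4.0.16 (R 4.3.3), with TMM, filterByExpr and tissue as the only term, over 15472 genes. Residual degrees of freedom were 2, those of the prior 18.05, and the common coefficient of variation 0.619. The fit was also run on simulated counts, drawn with its own estimate of spread and with changes put into bone marrow. Only bone marrow against fetal liver was read there, so the comparisons with AGM were not checked. Nothing says that codes are separate animals, so p-values measure the spread between these libraries, which may be technical. limma 3.58.1 on plates with the code as a random block (within-code correlation -0.0982) and DESeq2 1.42.0 were among the alternatives.

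Positions come from the GENCODE annotation of GRCm38, and promoters from RefSeq. The genes and lists were chosen with earlier results of these data known. Named with plate values are genes called in any comparison and the highest of each role. Isg15, Usp18, Ifit1 and Ifitm2, and in bone marrow Ifit2, Ifi44 and Parp9, were added after their values were seen. From the pathway lists, called receptor genes and up to 4 called genes per list are named. For the receptor, JAK and STAT list, the result in bone marrow against fetal liver is not reported here.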

Additional observations from a re-analysis of the deposited data

Results flagged for a closer look

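In groups of 5 plates, a plate was taken to stand apart where its gap to the nearest other plate exceeded Dixon's 95% critical value. Of 104 groups tested 11 had such a plate. The critical value flags about 1 in 20 groups of independent, normally distributed values. Values here include low counts, plates that share a code and sums of the same genes, so the number expected by chance is not known. In 4 genes it was bone marrow plate 2. Isg15 was at 96.8 CPM there, against 15.7 to 24.9 CPM in the other bone marrow plates, in 32 of 96 cells, the top cell with 22.2% of the UMIs. Usp18 was at 51.7 CPM against 7.16 to 15.9 CPM, in 21 cells, the top cell with 23.2%. Ifit3 was at 16.6 CPM against 0 to 4.37 CPM, with 96.7% of its UMIs in 1 cell. Oas2 was at 17.0 CPM against 0 to 3.98 CPM, from 2 cells.

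Rare cells also carried other flagged values. Oas3 was at 16.2 CPM in bone marrow plate 1, against 0.520 to 4.59 CPM elsewhere in bone marrow, from 4 cells. Oas2 was at 8.67 CPM in fetal liver plate 2, against at most 1.01 CPM, from 6 cells. Ifi44 was at 15.7 CPM in fetal liver plate 4, against at most 4.002 CPM, with 88.0% of its UMIs in 1 cell. Zbp1 was at 2.96 CPM in fetal liver plate 1 from 1 cell, against 0 in the other 4 plates.

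Sp100 was different in kind: it was at 41.0 CPM in fetal liver plate 4, against 19.9 to 25.0 CPM, with UMIs in 36 of 92 cells and 14.1% of them in the top cell. The 5 transcription factor genes summed to 229.5 CPM in bone marrow plate 4, against 327 to 362 CPM in the other 4. The direct antiviral genes summed to 514 CPM in bone marrow plate 1, against 441 to 461 CPM.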

How the results depend on the processing

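The 32 calls of single genes were recomputed under 26 alternatives. Of the 832 values, 722 kept direction and call, 109 lost the call and 1 turned, namely Bst2 in fetal liver against AGM when cells with a UMI were counted (log2 fold change 0.26). Of the lost calls 22 fell without fetal liver plate 4, and 9 calls were made in every alternative. The number of genes called in fetal liver against AGM was 8, and it was 14 by limma on plates, 17 with only these 2 tissues fitted and 4 with cells counted in place of UMIs. With a plate or an origin code left out it ran from 3 to 20. In bone marrow against fetal liver it was 9, and it was 16 by limma, 2 with only these tissues fitted and 4 with thinned cells, and with a plate or code left out it ran from 0 to 15. In bone marrow against AGM it was 15, and it ran from 7 to 22 with a plate or code left out. Where 1 library of a tissue was left, it was assumed to vary like the others. Calls over all genes moved with the plates too. Without fetal liver plate 4 the genes of all kinds called higher in fetal liver against AGM fell from 452 to 111. In bone marrow against fetal liver they fell from 414 to 56, and in bone marrow against AGM from 819 to 193. The ratio of summed levels of fetal liver to AGM was 1.81, and 1.4955 as a mean over cells, 1.51 for the median cell under a stricter cell filter and 1.39 with equal weight per gene. Bone marrow to fetal liver was 1.16, and 1.75 with equal weight. Bone marrow to AGM was 2.11, and 1.73, 1.67 and 2.43 under the same 3 settings. Without thinning the median number of genes detected per cell was 17, 15 and 13. DESeq2 moved the median log2 fold change of all genes in fetal liver against AGM from 0.05 to 0.16, and limma moved that of bone marrow against fetal liver from 0 to -0.12. The causes were not tested. No paired analysis was possible because plates are numbered within an origin code and no code holds 2 tissues. Genes below about 10 CPM rest on few cells and could show only large differences.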

Other observations

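A few cells held many of the genes at once. At 20000 UMIs per cell, 20 or more of the 44 genes were detected in 6 of 141 AGM cells (4.26%), 10 of 419 fetal liver cells (2.39%) and 6 of 392 bone marrow cells (1.53%), where the limit of 20 was chosen after the values were seen. A further 2, 8 and 3 cells had 19. The highest was a cell of fetal liver plate 1 with 33 genes, among them Isg15, Ifit1, Ifit3, Usp18 and Zbp1, followed by a cell of fetal liver plate 3 with 27 and a cell of AGM plate 1 with 25. Since they were picked by these same genes, the share of the genes' UMIs that they hold is a description fixed in part by that choice. In thinned fetal liver cells the 10 had 65.5% of Ifi44, 42.6% of Iigp1, 40.5% of Ifit1, 33.7% of Usp18 and 24.0% of Isg15 UMIs, and 7.40% of Ifi47, 2.86% of Cmpk2 and 2.40% of Ifitm1. In bone marrow the 6 cells held 23.9% of Usp18 and 17.02% of Isg15 UMIs, and 0% of those of Ifit2, Ifit3, Rsad2 and Oas3. The 10 fetal liver cells also showed more genes of all kinds, with a median of 3824.5 against 3079 for fetal liver.

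Plates of the 2 bone marrow origin codes differed in several genes. Ifit2 was at 15.9 and 16.3 CPM in plates 4 and 5, and at 4.37, 7.43 and 8.20 CPM in plates 1 to 3. Zbp1 and Gbp3 were also highest in plates 4 and 5. Ifi44 was at 8.16 and 11.97 CPM in plates 4 and 5 and at 39.3, 56.7 and 32.4 CPM in plates 1 to 3, and Parp9 was at 10.4 and 7.37 CPM against 30.5, 45.5 and 37.9 CPM. With 1 library per code these differences were not tested.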
